A study of Mus musculus with 10 samples.

Results

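The 10 mouse genes described here encode the RING finger subunits and the RYBP-type subunits of Polycomb repressive complex 1 (PRC1): *Ring1*, *Rnf2*, *Pcgf1*, *Pcgf2*, *Pcgf3*, *Bmi1*, *Pcgf5*, *Pcgf6*, *Rybp* and *Yaf2*. They were chosen by name, as 10 of 22359 protein-coding genes of GENCODE M1 on the mm9 build. Peaks were collected where they came within 2500 bp of any protein-coding transcription start site (TSS) of a gene or overlapped its body. The lists come from ChIP-seq with a *Drosophila* S2 cell spike-in (ChIP-Rx) against H3K4me3, H3K27ac, H3K27me3 and H2AK119ub. The chromatin was that of mCherry-positive cells sorted at day 4 from embryoid bodies, that is clumps in which mouse embryonic stem (ES) cells differentiate.

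Both groups carried an mCherry reporter in *Scl*, the gene of a transcription factor needed for blood specification, so that sorted cells were those with an active *Scl* locus. In the WT group (genotype Scl wt) SCL was functional. In the Delta group (genotype Scl d/d) both alleles lacked the DNA-binding bHLH domain. The reporter sat on 1 allele of *Scl* in the WT line, and the Delta line was made by further editing of that line. Each group is therefore 1 ES cell line derived from a single cell. Strain was labelled C57Bl/6 X Sv129 for some libraries, and the number in that label ran up to Sv136 in others. Each mark was read in 1 library per genotype. No value here has a replicate check, and each difference is one between 2 libraries. The 8 lists held between 2388 and 16038 peaks. Read depth cannot be derived from them.

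The sorted cells were labelled mesoderm. Of 6 blood and endothelial mesoderm genes (*Kdr*, *Etv2*, *Lmo2*, *Cdh5*, *Fli1* and *Gata2*), H3K4me3 was called at 6 in WT and 5 in Delta, and H3K27ac at 3 in WT (*Lmo2*, *Fli1* and *Gata2*) and 0 in Delta. None of 4 cardiac and paraxial mesoderm, 2 neural, 2 endoderm and 2 pluripotency genes carried H3K27ac in either genotype. H3K4me3 was called at all the cardiac and paraxial, neural and endoderm genes in both genotypes, so its calls did not set the blood list apart from these. H3K27me3 was called at 4 of the 6 blood and endothelial genes in each genotype, *Lmo2*, *Fli1* and *Gata2* among them. It was called at 3 of the 4 cardiac and paraxial genes in each. Of the pluripotency genes, *Nanog* had neither H3K4me3 nor H3K27ac in either genotype, and *Pou5f1* had H3K4me3 in Delta alone. A difference in the mix of cells behind the mCherry gate and a difference in chromatin per cell cannot be told apart in these bulk lists.

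PRC1 is a ubiquitin ligase of chromatin. Its catalytic core pairs RING1 (RING1A) or RNF2 (RING1B) with 1 of the PCGF ring finger proteins, and together they place H2AK119ub on nucleosomes at silenced genes. A complex holds either a CBX protein or RYBP or its paralogue YAF2. PCGF2 (MEL18) and BMI1 (PCGF4) are the PCGF proteins of canonical PRC1, whose CBX proteins bind the H3K27me3 laid down by PRC2. The other PCGF proteins occur in variant complexes, which hold RYBP or YAF2. Of the marks, H3K4me3 and H3K27ac are found at active promoters and H3K27me3 at repressed ones, and promoters that carry H3K4me3 together with H3K27me3 are termed bivalent.

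Most of the upstream start sites of these genes lie in CpG-rich sequence. Over the 1000 bp centred on the most upstream TSS, the ratio of observed to expected CpG was 0.690 to 1.1 for 9 of the 10 genes, against a median of 0.554 over 22347 protein-coding genes. *Yaf2* had 1.1, higher than 99.8% of genes, and *Rybp* 1.04, higher than 99.2%. The exception was *Pcgf5*, with 0.332 at its first GENCODE TSS but 0.982 at its second, 30681 bp downstream. The RefSeq annotation (GRCm38.p6) gives *Pcgf5* a further start. Its promoter sequence matched NCBIM37 (mm9) exactly once near the gene, at a TSS on chromosome 19 at 36422819, which is 30738 bp upstream of the first GENCODE site, and the ratio there was 0.884.

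The 250 bases before the TSS, 5′ to 3′ on the strand of the gene, are shown here for 5 start sites on NCBIM37, with CpG dinucleotides in capitals. They are shown because the peaks of their genes differ. *Rybp* had H3K4me3 and H3K27ac alone, *Bmi1* had H3K27me3 and H2AK119ub besides H3K4me3, and *Pcgf5* had peaks at 2 of its 3 start sites. Of the *Bmi1* marks, only H3K4me3 covered the stretch shown, in both genotypes. The *Rybp* stretch (chr6:100237436-100237685, minus strand) holds 49 CpG and the *Bmi1* stretch (chr2:18598395-18598644, plus strand) holds 21. Those of *Pcgf5*, on the plus strand, hold 23 before the RefSeq start (chr19:36422569-36422818), 4 before the first GENCODE start (chr19:36453307-36453556) and 28 before the second (chr19:36483988-36484237).
Rybp: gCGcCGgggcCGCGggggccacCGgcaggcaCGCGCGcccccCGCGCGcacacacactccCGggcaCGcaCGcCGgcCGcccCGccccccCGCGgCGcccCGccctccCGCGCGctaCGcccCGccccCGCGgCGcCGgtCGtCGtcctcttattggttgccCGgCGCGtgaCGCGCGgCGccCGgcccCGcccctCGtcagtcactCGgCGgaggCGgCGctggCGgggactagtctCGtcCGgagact
Bmi1: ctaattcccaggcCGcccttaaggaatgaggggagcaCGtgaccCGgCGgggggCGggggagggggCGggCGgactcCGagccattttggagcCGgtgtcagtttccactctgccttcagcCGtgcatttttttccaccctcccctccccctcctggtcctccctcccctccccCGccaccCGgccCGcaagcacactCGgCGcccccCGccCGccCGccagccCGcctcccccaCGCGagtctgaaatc
Pcgf5, RefSeq start: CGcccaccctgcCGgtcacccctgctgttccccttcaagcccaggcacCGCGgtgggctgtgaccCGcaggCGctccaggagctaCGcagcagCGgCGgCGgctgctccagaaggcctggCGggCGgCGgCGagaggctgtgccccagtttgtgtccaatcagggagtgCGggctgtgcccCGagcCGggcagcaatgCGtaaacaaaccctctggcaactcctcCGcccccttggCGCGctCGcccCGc
Pcgf5, first GENCODE start: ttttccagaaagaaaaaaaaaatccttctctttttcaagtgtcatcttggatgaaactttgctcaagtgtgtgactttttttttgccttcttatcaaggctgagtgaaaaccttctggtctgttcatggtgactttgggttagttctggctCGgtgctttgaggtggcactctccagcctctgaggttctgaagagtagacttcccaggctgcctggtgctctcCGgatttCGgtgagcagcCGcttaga
Pcgf5, second GENCODE start: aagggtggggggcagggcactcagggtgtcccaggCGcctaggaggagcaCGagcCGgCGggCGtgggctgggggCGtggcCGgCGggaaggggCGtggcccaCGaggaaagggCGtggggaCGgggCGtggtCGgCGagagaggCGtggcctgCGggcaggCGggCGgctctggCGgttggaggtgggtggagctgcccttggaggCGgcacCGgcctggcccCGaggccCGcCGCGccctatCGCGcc

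Short motifs were searched on both strands from 250 bases before to 50 bases after the most upstream TSS. An E-box (CANNTG, the kind of site that SCL and its partners bind) was present at 6 of the 10 genes (*Pcgf1*, *Pcgf3*, *Bmi1*, *Pcgf5*, *Yaf2* and *Ring1*) and at 69.4% of 22354 promoters. At *Pcgf5* this held for the first GENCODE start, which had no peaks. Its second GENCODE start and its RefSeq start, which had peaks, held 0 E-boxes. *Pcgf2* went the other way, with 0 at its first start and 2 at its second. The composite of CTG and GATA (CTGNNNNNNNNGATA or CTGNNNNNNNNNGATA, with either spacing) was present at 0 of the 10 and at 3.82% of promoters. The YY1 motif AANATGGC was present at *Pcgf1*, *Bmi1* and *Rnf2*, and at 6.56% of promoters. At the most upstream TSS, the ETS motif CCGGAAG was present at *Pcgf1* alone (10.9% of promoters) and the E2F motif TTCCCGCC at *Rnf2* alone (2.87%). Later start sites added a YY1 match at *Pcgf2* and an E2F match at the second GENCODE start of *Pcgf5*. These are matches of letters and not measured binding sites.

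To ask whether the genes of PRC1 itself carried active or repressive chromatin, and whether this differed with SCL, calls were made at their TSSs. H3K4me3 was called at all 10 genes in both genotypes, against 60.7% of all protein-coding genes in WT and 60.3% in Delta. H3K27ac peaks were found at 6 genes in each genotype (19.9% and 22.8% of all genes in WT and Delta), of which *Pcgf2*, *Pcgf3*, *Rybp*, *Rnf2* and *Ring1* were called in both. H3K27me3 peaks were found at 9 genes in WT and 8 in Delta (34.8% and 32.7% of all genes), at every gene but *Rybp* in WT and at every gene but *Rybp* and *Pcgf6* in Delta. H2AK119ub was called at 1 gene, *Bmi1*, in both genotypes (9.21% and 5% of all genes).

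Since all 10 genes had H3K4me3, genes with H3K4me3 are the closer background. Of these, 32.6% had H3K27ac in WT and 37.6% in Delta, 53.4% and 50% had H3K27me3, and 13.8% and 7.72% had H2AK119ub. Among genes with a CpG ratio of at least 0.6, H3K27me3 was called at 54.6% in WT and 50.5% in Delta. *Pcgf2*, *Pcgf3*, *Rnf2* and *Ring1* had the same calls in all 8 lists, that is H3K4me3, H3K27ac and H3K27me3 without H2AK119ub in both genotypes, a pattern of 1253 genes. *Pcgf1* had H3K4me3 and H3K27me3 alone, as had 2178 genes. The map of base pairs under peaks shows the 3 groups of values: a full H3K4me3 column, a broken H3K27ac column and an H3K27me3 column that is empty for *Rybp*.

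**Figure D1:**
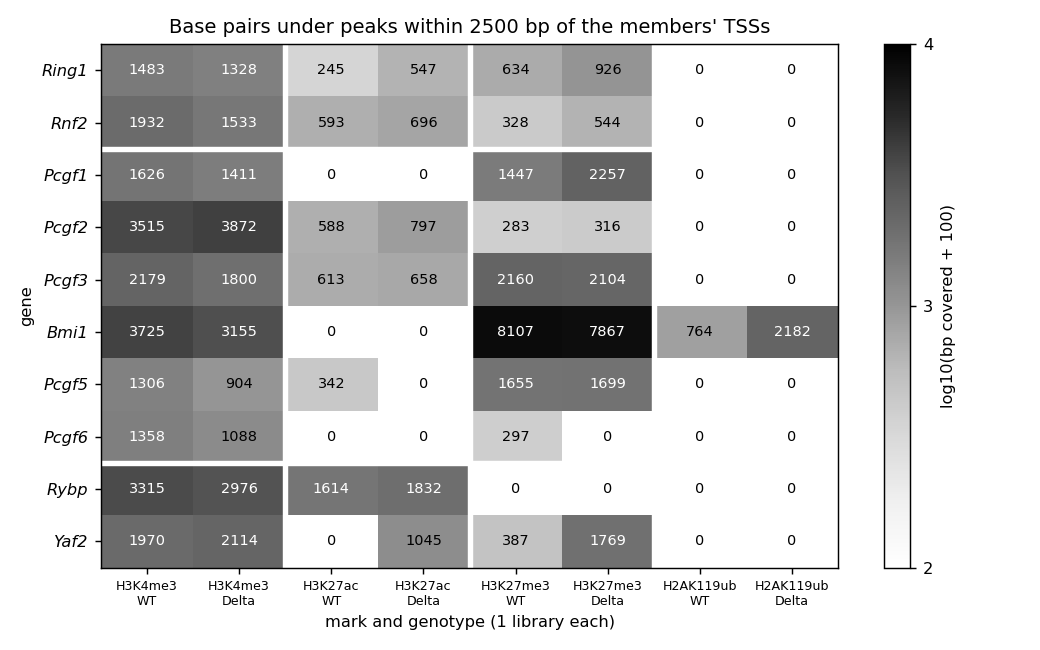
Base pairs covered by peaks within 2500 bp of the TSSs of each gene (rows, ordered as RING1 proteins, PCGF proteins, RYBP and YAF2) in the 8 libraries (columns); shading is log10 of the covered bp plus 100. H3K4me3 covers 904 to 3872 bp in every gene, and H2AK119ub is at 0 except at *Bmi1*, where it covers 764 bp (WT) and 2182 bp (Delta).

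Calls differed between genotypes for 3 genes. H3K27ac was called in WT alone at *Pcgf5* and in Delta alone at *Yaf2*, 1 gene each (3.43% and 6.37% of all genes). H3K27me3 was called in WT alone at *Pcgf6* and in Delta alone at 0 genes (7.04% and 4.91%). No gene of the 10 differed for H3K4me3 (1.06% of all genes in WT alone and 0.684% in Delta alone) or H2AK119ub (5.08% and 0.863%). These shares are over all genes and were not derived for genes with H3K4me3, the closer background. These 3 calls were weak. The −log10 q of the peak behind them was 2.37 at *Pcgf5*, 1.68 at *Yaf2* and 1.57 at *Pcgf6*, where the lists began at 1.30 to 1.36. Peaks below 3 made up the whole call at 53.1% of genes with H3K27ac in WT alone, 68.5% of those in Delta alone and 68.3% of those with H3K27me3 in WT alone. With peaks of a −log10 q of at least 3 only, the H3K27ac call differed at 1 gene, *Pcgf3* (3.29 in WT and 2.69 in Delta), and the H3K27me3 call at 1 gene, *Pcgf2* (4.03 and 1.72).

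**Figure D2:**
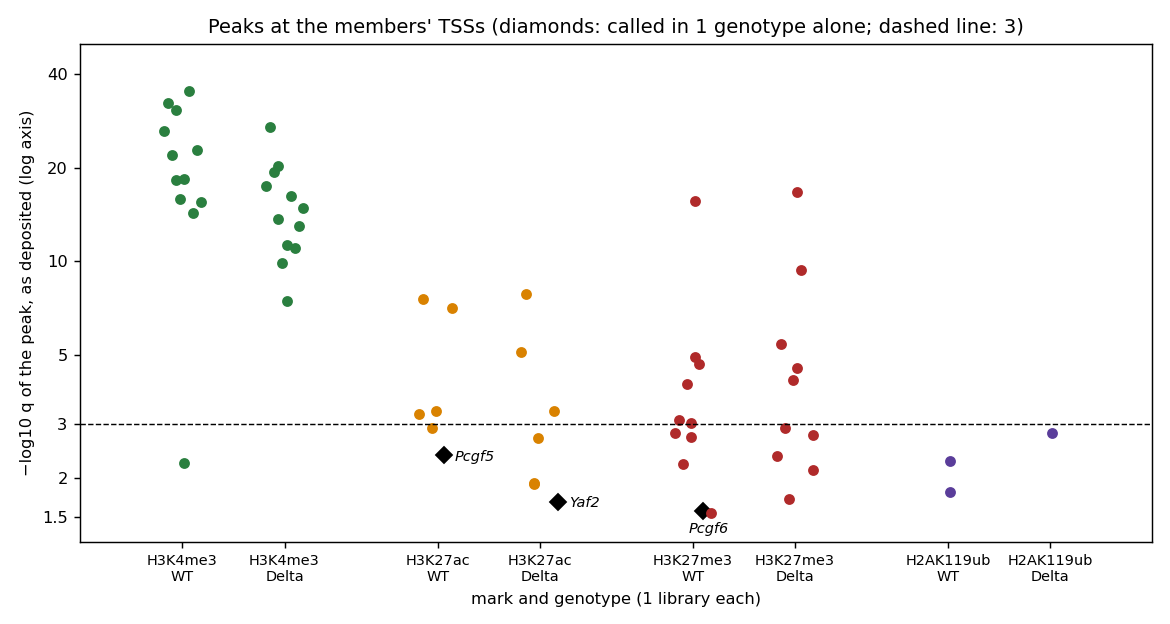
Strength of each peak at a TSS of the 10 genes, as the deposited −log10 q on a log axis, by mark and genotype; diamonds are peaks of genes called in 1 genotype alone. H3K4me3 peaks lie above 7 except the smaller WT peak of *Bmi1* at 2.24, while the 3 diamonds lie between 1.57 and 2.37.

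The catalytic pair had the same calls. *Ring1* (ENSMUSG00000024325.8, chr17:34157737-34161625, minus strand) encodes RING1A. Its single H3K4me3 peak was 1483 bp long in WT and 1328 bp in Delta, with fold enrichments over the local background of 8.91 and 7.39. H3K27ac covered 245 bp in WT (fold enrichment 3.53) and 547 bp in Delta (4.91), across the TSS in both. H3K27me3 covered 634 bp and 926 bp upstream of it, reaching the TSS in Delta only, and overlapped H3K4me3 along its whole length in both genotypes. This H3K27me3 lay over the microRNA gene *Mir219-1*, which sits just upstream of *Ring1*. The nearest coding TSS, that of *H2-Ke6* on the same strand, lies 3376 bp away, and no peak counted at *Ring1* came within 2500 bp of it. The H3K27me3 fold enrichments were 3.34 and 3.23, higher than 30.4% and 13.8% of peaks in their lists.

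*Rnf2* (ENSMUSG00000026484.7, chr1:153316536-153347953, minus strand) encodes RING1B. Its H3K4me3 peak shortened from 1932 bp in WT to 1533 bp in Delta, while its fold enrichment was 8.88 and 9.55. H3K27ac covered 593 bp and 696 bp, starting 65 bp and 25 bp into the gene. H3K27me3 covered 328 bp and 544 bp inside the H3K4me3 peak, the shortest H3K27me3 of the called genes among the 10 in Delta and the shortest but that of *Pcgf6* in WT. It was longer than 9.56% and 21.3% of called genes. H3K27ac and H3K27me3 thus both lay within the first 840 bp of *Rnf2*, on its H3K4me3 peak, in both genotypes. Peaks on chromosome 1 had a higher median −log10 p value than others of like fold enrichment in every list that called *Rnf2*. The medians were closest in H3K27me3 in WT, at 4.26 and 3.98. In H3K4me3 in WT, the median −log10 p at a fold enrichment within 5% of that of *Rnf2* was 31.2 over 83 peaks on chromosome 1 and 25.2 over 1400 peaks on the other autosomes apart from chromosome 8. The value of *Rnf2* was 35.3, and the part of its chromosome in that was not tested.

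Among the PCGF genes, *Pcgf1* (ENSMUSG00000069678.3, chr6:83028380-83030841, plus strand) encodes the subunit that defines the variant complex with KDM2B and BCOR. H3K4me3 was 1626 bp long in WT and 1411 bp in Delta around its TSS. H3K27me3 lay beside it, upstream of the gene. It ran from 2502 to 1054 bp before the first TSS in WT and from 3059 to 244 bp before it in Delta. The overlap with H3K4me3 was 0 bp in WT and 455 bp in Delta. No H3K27ac peak lay within 23260 bp of a *Pcgf1* TSS.

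*Pcgf2* (ENSMUSG00000018537.9, chr11:97550137-97561811, minus strand) encodes a PCGF protein of canonical PRC1. It had the longest summed H3K4me3 of the 10 genes, 5261 bp in WT and 5345 bp in Delta, longer than 99.0% and 99.3% of called genes. Part of that belonged to a neighbour. The TSS of *Psmb3*, a proteasome subunit gene on the opposite strand, lies 2902 bp away. The second H3K4me3 peak (2202 bp and 1926 bp) and the whole of the H3K27me3 (1157 bp and 1131 bp) lay 2045 to 4246 bp upstream of the first *Pcgf2* TSS, at *Psmb3*. When each peak was given to the nearest coding TSS only, *Pcgf2* had no H3K27me3 call in either genotype. The peak over its own start sites measured 3059 bp (WT) and 3419 bp (Delta), and H3K27ac there covered 588 bp in 1 peak and 797 bp in 2 peaks.

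*Pcgf3* (ENSMUSG00000033623.7, chr5:108890251-108935995, plus strand) encodes with *Pcgf5* the closely related PCGF proteins of the variant complexes that hold AUTS2. H3K4me3 was 2179 bp long in WT and 1800 bp in Delta, running from the TSS region into the gene, and H3K27ac covered 613 bp and 658 bp within it. H3K27me3 lay mainly upstream, from 3072 to 614 bp before the TSS in WT and from 3685 to 397 bp before it in Delta. WT had a further H3K27me3 peak of 273 bp from 482 to 754 bp after the TSS, with a −log10 q of 2.72. Under 10% of the H3K27me3 length overlapped H3K4me3, 9.99% in WT and 1.37% in Delta.

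*Bmi1* (ENSMUSG00000026739.7, chr2:18598645-18608256, plus strand) encodes the PCGF protein that keeps stem cells of the blood self-renewing. It was the one gene of the 10 with H2AK119ub and carried the most H3K27me3. At its start sites, H3K27me3 peaks had a total length of 8294 bp (WT) and 7867 bp (Delta), with top fold enrichments of 7.30 and 8.05 that exceeded 93.2% and 93.7% of their lists. A further H3K27me3 domain began 9058 bp after the first TSS in WT and 9046 bp after it in Delta and ran past the 3′ end of the gene. It was 17194 bp long in WT and 7529 bp long in Delta, within 2500 bp of the *Gm13334* TSS in both and of the *BC061194* TSS in WT. These lengths depended on where peaks were cut. With peaks up to 3000 bp apart joined, which took in this domain, the Delta over WT ratio of H3K27me3 length at *Bmi1* was 0.986. H2AK119ub was called as 2 peaks of 369 bp and 395 bp in WT and as 1 peak of 2182 bp in Delta, with fold enrichments of 3.91, 3.55 and 4.58. All 764 bp in WT and all 2182 bp in Delta lay under H3K27me3. None of the 3 peaks reached a −log10 q of 3, as held for all but 2.01% and 2.05% of peaks in their lists. H3K4me3 was present as well, 3725 bp in WT and 3155 bp in Delta in 2 peaks each, around the first TSS and around the start sites 3976 and 4089 bp downstream. H3K27me3 covered 74.0% and 65.1% of it, the highest share of the 10 genes in WT. H3K27ac was absent, with the nearest peak 611233 bp from a TSS in WT and 4111 bp in Delta. The TSS of *Commd3*, a gene on the same strand, lies 4595 bp from that of *Bmi1*, and the H3K27me3 and WT H2AK119ub peaks upstream of the first *Bmi1* TSS lay in *Commd3*.

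*Pcgf5* (ENSMUSG00000024805.8, chr19:36453557-36530682, plus strand) had no peak of any mark within 2500 bp of its first GENCODE TSS. All peaks counted at its GENCODE start sites lay at the CpG-rich second TSS, 30681 bp downstream. There H3K4me3 was 1306 bp long in WT, with a fold enrichment of 12.5 that exceeded 99.0% of the list, and 904 bp long in Delta, with 7.94. H3K27ac covered 342 bp in WT (fold enrichment 3.84), and in Delta the nearest H3K27ac peak was 30180 bp from a GENCODE TSS. H3K27me3 covered 1655 bp (WT) and 1699 bp (Delta), and its fold enrichment was 4.07 in WT and 6.04 in Delta.

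That nearest Delta peak was at the RefSeq start of *Pcgf5*. Of the 4 marks, 3 were called at this start in both genotypes. H3K4me3 was 1789 bp long in WT and 1858 bp in Delta, with fold enrichments of 9.38 and 9.09. H3K27ac was 663 bp long in WT and 429 bp in Delta, with fold enrichments of 3.39 and 4.98 and −log10 q values of 1.7 and 4.49. H3K27me3 was 4587 bp and 5587 bp long. The H3K27ac call of *Pcgf5* was thus in WT alone at the second GENCODE start and in both genotypes at the RefSeq start, where its fold enrichment was the higher in Delta.

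*Pcgf6* (ENSMUSG00000025050.6, chr19:47108109-47125380, minus strand) encodes the PCGF protein of the variant complex with MGA, MAX and L3MBTL2. It had the fewest marks of the 10 in Delta, where H3K4me3 alone was called. H3K4me3 was 1358 bp long in WT and 1088 bp in Delta. The WT H3K27me3 peak was 297 bp long with a fold enrichment of 2.76, higher than 0.881% of its list, and the nearest such peak in Delta was 16893 bp away. No H3K27ac peak lay within 16907 bp of a *Pcgf6* TSS.

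*Rybp* (ENSMUSG00000072872.2, chr6:100178560-100237435, minus strand) encodes the zinc finger protein that takes the place of CBX in variant PRC1. It was the one gene of the 10 without H3K27me3 in both genotypes, and the nearest such peak lay 273151 bp from the TSS in WT and 104647 bp in Delta. Its H3K4me3 peak was 3406 bp long in WT and 2976 bp in Delta, longer than 93.5% and 92.3% of called genes, and its fold enrichment was 9.25 and 7.03. Its H3K27ac peak was the widest of the 10, 1614 bp in WT and 1832 bp in Delta, longer than 94.6% and 97.4% of called genes. The fold enrichment of H3K27ac was 5.23 in WT and 4.48 in Delta, and its −log10 q was 7.06 and 3.30. In Delta the peak was thus longer and less enriched than in WT. H2AK119ub was not called within 72901 bp in WT.

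*Yaf2* (ENSMUSG00000022634.9, chr15:93114709-93167366, minus strand) is the paralogue of *Rybp*. Unlike *Rybp* it carried H3K27me3 in both genotypes, 387 bp in WT and 1933 bp in 2 peaks in Delta. The WT peak was weak (fold enrichment 2.85, −log10 q 1.54), and with fold enrichments of at least 3 only, H3K27me3 was called at *Yaf2* in Delta alone. In WT this lay 1345 to 1731 bp before the TSS and did not touch H3K4me3, and in Delta 547 bp of it lay within H3K4me3, just after the TSS. H3K4me3 was 1970 bp long in WT and 2114 bp in Delta. H3K27ac was called in Delta alone, over 1045 bp that spanned the TSS, with a fold enrichment of 3.83, higher than 16.5% of its list. Its nearest H3K27ac peak in WT was 61256 bp from the TSS. Both H3K27ac and H3K27me3 were thus more extended in Delta at *Yaf2*, all of it in peaks with a −log10 q below 3.

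**Figure D3:**
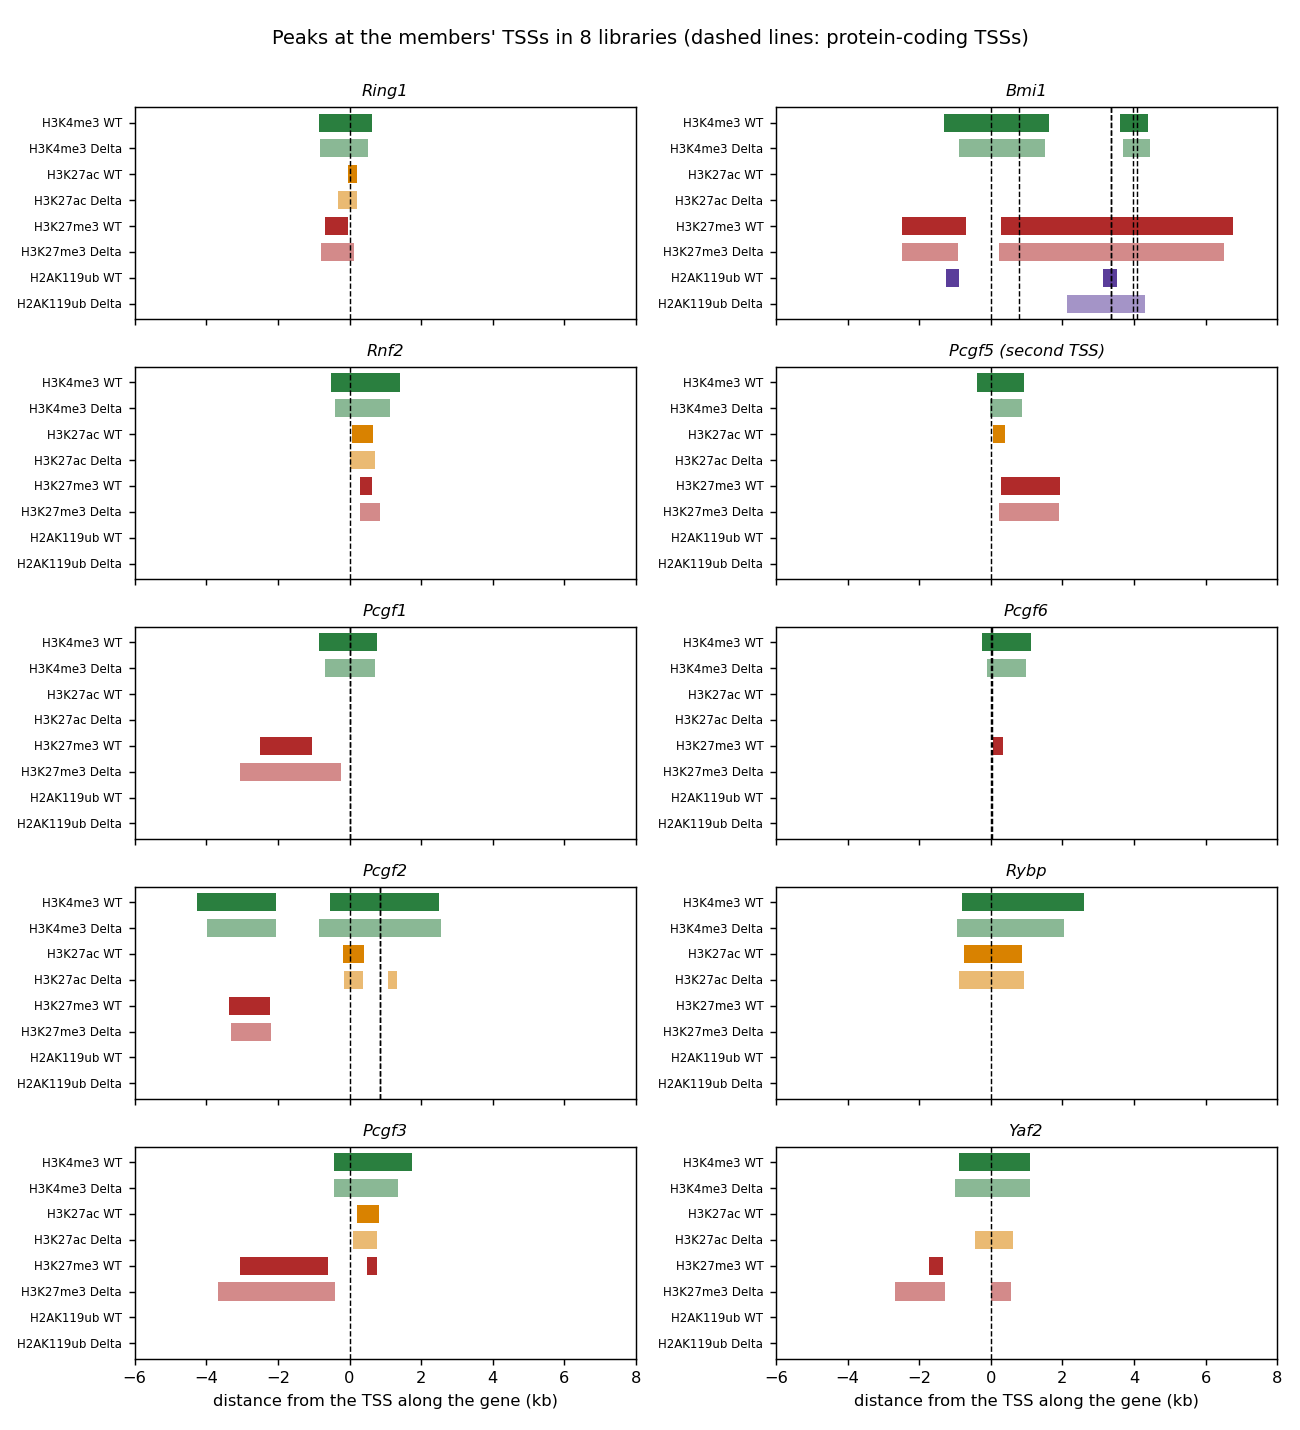
Peaks around the TSS of each gene in the 8 libraries, with distance along the gene in kb from the most upstream protein-coding TSS (for *Pcgf5*, from its second); darker bars are WT, lighter bars Delta, and dashed lines are protein-coding TSSs. H3K4me3 spans a TSS in every gene, whereas H3K27me3 peaks lie beside the TSSs except at *Bmi1* and, in Delta, *Ring1*. At *Bmi1* H3K27me3 covers later start sites and not the first. The *Bmi1* domain beyond 8 kb is not drawn.

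Position relative to the TSS differed between the marks. The base of a TSS lay under H3K4me3 at all 10 genes in both genotypes, as at 88.6% of genes called for H3K4me3 in WT and 86.1% in Delta. It lay under H3K27ac at 3 of 6 called genes in WT and 4 of 6 in Delta (48.9% and 49.1% of called genes). It lay under H3K27me3 at 1 of 9 called genes in WT (*Bmi1*) and 2 of 8 in Delta (*Bmi1* and *Ring1*), where 58.7% and 59.1% of called genes had it. Each H3K27ac peak lay wholly on H3K4me3. H3K27me3 overlapped H3K4me3 by 100% at *Pcgf2*, *Rnf2* and *Ring1* in both genotypes and at *Pcgf6* in WT, and by 0.00% at *Pcgf1* and *Yaf2* in WT. The overlap counted at *Pcgf2* lay on the H3K4me3 peak at *Psmb3*, and not on the one over its own start sites.

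Lengths were next compared between genotypes at genes called in both. H3K4me3 was shorter in Delta at 8 of the 10 genes, against 67.1% of 13324 genes, so that shortening was the usual direction across the genome. The median ratio of Delta over WT was 0.857 for the 10 genes and 0.928 for all genes, whose middle 50% ran from 0.803 to 1.04. No gene of the 10 shortened by 1.5-fold or more, which 9.87% of genes did. *Pcgf5* had the lowest ratio, 0.692, below which lay 11.8% of genes, followed by *Rnf2* at 0.793 and *Pcgf6* at 0.801. *Yaf2* and *Pcgf2* had ratios above 1, at 1.07 and 1.02. The plot of the ratios places all 10 within the bulk of genes. The lowest, at *Pcgf5*, rose to 0.892 when the peaks at its RefSeq start were added.

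**Figure D4:**
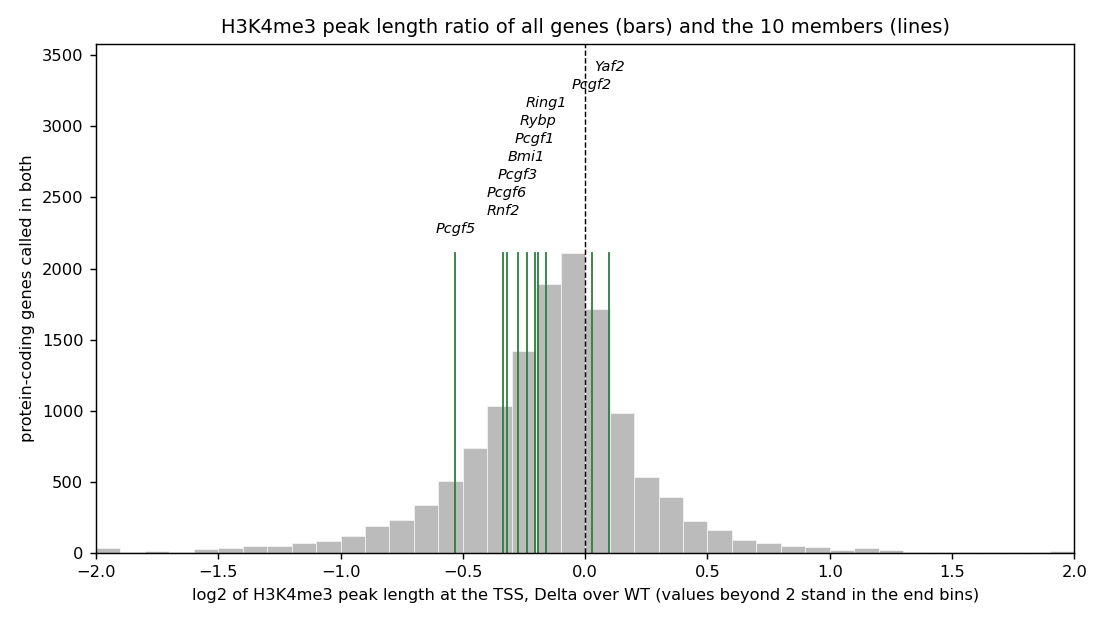
Distribution over 13324 protein-coding genes of the log2 ratio of H3K4me3 peak length at the TSS, Delta over WT (bars, number of genes per 0.1), with a line for each of the 10 genes. The lines of 8 genes lie left of 0, from *Pcgf5* to *Ring1*, and those of *Pcgf2* and *Yaf2* lie right of it.

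With GENCODE start sites, H3K27ac was longer in Delta at 5 of 5 genes called in both, against 51.7% of 3672 genes. The ratio was 1.07 at *Pcgf3*, 1.14 at *Rybp*, 1.17 at *Rnf2*, 1.36 at *Pcgf2* and 2.23 at *Ring1*. Only *Ring1* passed 1.5-fold, as did 23.6% of genes. *Pcgf5* was not among the 5, as its GENCODE start sites had this mark in WT alone. Its RefSeq start had the mark in both genotypes and went the other way, with a Delta peak of 429 bp against a WT peak of 663 bp. Adding RefSeq start sites took the median H3K27ac ratio from 1.17 to 1.15. The ratio of *Pcgf2* became 2.52, past 1.5-fold, when peaks up to 3000 bp apart were joined, which merged its 2 Delta peaks. H3K27me3 was longer in Delta at 6 of 8 genes, against 51.2% of 6216 genes. Ratios were 4.99 at *Yaf2*, 1.94 at *Pcgf1* and 1.66 at *Rnf2*, and these 3 passed 1.5-fold, as did 13.5% of genes. *Bmi1*, with the longest H3K27me3, had a ratio of 0.949 and *Pcgf2* 0.978, the latter from peaks at *Psmb3*. With each peak given to the nearest coding TSS only, *Pcgf2* had no ratio, and the median H3K27me3 ratio went from 1.33 to 1.46. The H3K27me3 ratios also moved with where peaks were cut. With peaks joined in this way, that of *Pcgf1* was 1.05, that of *Pcgf3* went from 1.2 to 0.859 and that of *Yaf2* became 8.33. The *Yaf2* ratio could not be given with a −log10 q or a fold enrichment of at least 3, with equal numbers of top peaks or with a TSS distance of 1000 bp, since *Yaf2* then had no WT call.

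**Figure D5:**
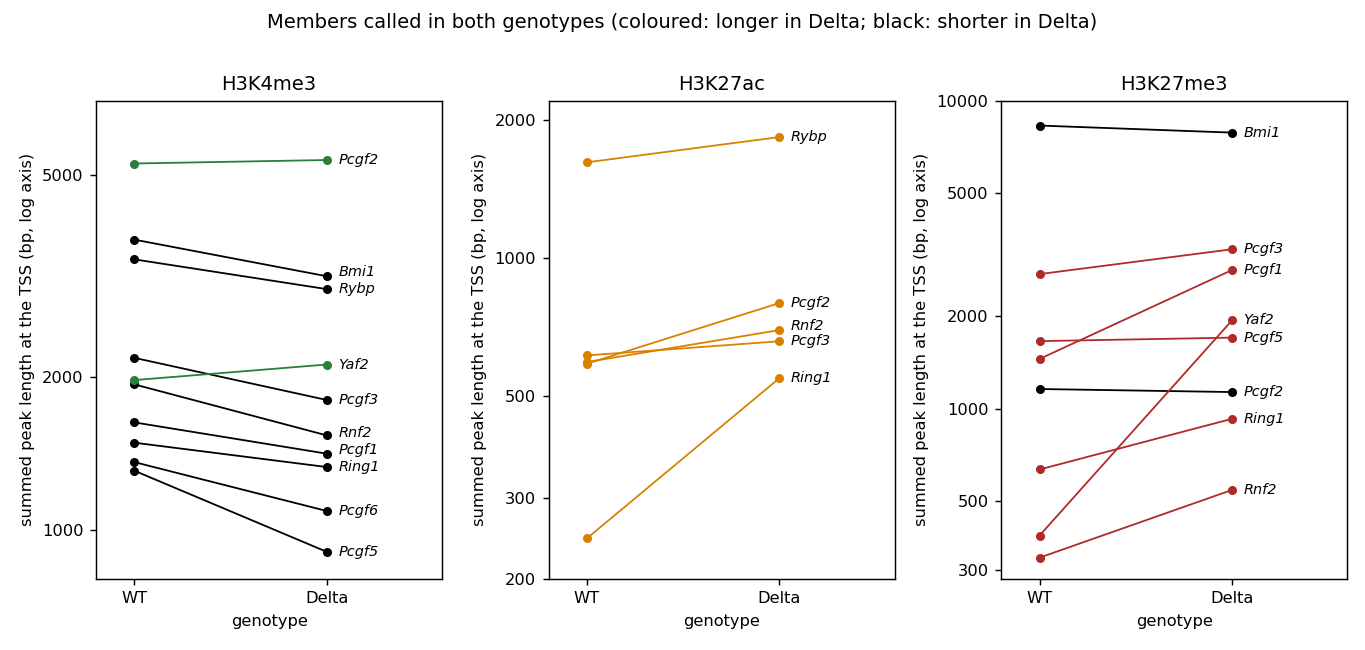
Summed length of the peaks reaching the TSS windows of each gene called in both genotypes, in bp on log axes, in WT and Delta; coloured lines are longer and black lines shorter in Delta. H3K4me3 lines fall for 8 of 10 genes, the 5 H3K27ac lines rise, and 6 of 8 H3K27me3 lines rise, the steepest at *Yaf2*.

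The genes whose covered lengths were most like those of *Rybp* over the 8 lists, by Euclidean distance of log2(covered bp + 100), were *Bclaf1* and the overlapping *4933406P04Rik* (distance 0.164) and *Srsf10* (0.302). All 3 had H3K4me3 and H3K27ac and 0 bp of H3K27me3 and H2AK119ub. For *Pcgf5* they were *Papolg* (0.596) and the overlapping *Gm10430* and *C530008M17Rik* (0.726). The calls of *Rybp* were shared by 1163 genes and those of *Pcgf5* by 131.

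The other genes of the Polycomb system were described in the same way over a list of 43, all of which were found. H3K4me3 was called at 42 in both genotypes, all but *Fbrs*. H3K27ac was called at 25 in WT and 27 in Delta, against 32.6% and 37.6% of all genes with H3K4me3. H3K27me3 was called at 28 and 23 (53.4% and 50% of such genes) and H2AK119ub at 4 and 1 (13.8% and 7.72%). Over all genes too, H3K27me3 and H2AK119ub calls were fewer in Delta. *Cbx8*, the gene of a CBX protein of canonical PRC1, had it in both genotypes, over 2933 bp in WT and 7602 bp in Delta. *Kdm2b*, *Fbrsl1* and *Phf19* had it in WT alone, over 551, 648 and 333 bp. *Bmi1* and *Cbx8* had H2AK119ub in both genotypes.

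Over these 43 genes the H3K27me3 call was in WT alone at 9 and in Delta alone at 4, where 7.04% and 4.91% of all genes had such calls. The H3K27ac call was in WT alone at 2 and in Delta alone at 4 (3.43% and 6.37% of all genes), the H2AK119ub call in WT alone at 3 (5.08%), and the H3K4me3 call differed at 0. Here too the shares are over all genes and not over those with H3K4me3. Most of these calls were weak. The −log10 q was below 3 at all 9 genes with H3K27me3 in WT alone, at 3 of the 4 in Delta alone (all but *Bap1*) and at all 3 with H2AK119ub. It reached 3 for H3K27ac at *L3mbtl2* in WT and at *Mga*, *Auts2* and *Csnk2a1* in Delta.

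Of 19 partners of the variant complexes, the H3K27me3 call differed at 7 and the H3K27ac call at 5. Over all genes the shares were 7.04% in WT alone and 4.91% in Delta alone for H3K27me3, and 3.43% and 6.37% for H3K27ac. At none of the 7 did the H3K27me3 peak reach a −log10 q of 3. *L3mbtl2*, *Max*, *Wdr5*, *Hdac1* and *Csnk2b* had H3K27me3 in WT alone, as did *Pcgf6*, while *Dcaf7* and *Csnk2a2* had it in Delta alone. These WT peaks covered 219 to 848 bp. *L3mbtl2* and *Csnk2b* had H3K27ac in WT alone, and *Mga*, *Auts2* and *Csnk2a1* in Delta alone. Of 8 genes of canonical PRC1, *Phc3* and *Scmh1* had H3K27me3 in WT alone and no H3K27ac call differed. Of 11 PRC2 genes, *Ezh2*, the methyltransferase of H3K27, had H3K27me3 over 442 bp in WT alone, *Jarid2* over 1133 bp in Delta alone, and *Rbbp7* had H3K27ac in Delta alone. Of 5 genes of H2A deubiquitinases, *Usp16* had H3K27me3 in WT alone and *Bap1* in Delta alone.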

How the data were processed

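Data were 8 broad peak lists, with 1 library per mark and genotype, and 2 input libraries without a list. Per the study's methods and the submitters' processing notes, the authors aligned reads to mm9 and dm3 with Bowtie and called broad peaks in each ChIP library separately with MACS2 2.0.10 against its input. According to the methods the spike-in factor scaled read densities. Peak calling did not use it, so lists of peaks do not show whether a mark changed in level across the genome. The authors deposited with each peak a fold enrichment (the ratio of ChIP to local background), a −log10 p-value and a −log10 q-value. The deposited score of a peak was not used.

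A gene of GENCODE M1 counted as called if at least 1 peak lay no more than 2500 bp from one of its protein-coding TSSs, and its length is the sum of such peaks. Coordinates are 1-based. A length ratio of 1.5 or more in either direction counted as past the fold. The genes and lists were chosen with earlier results of these data known. Named genes were all 10, the nearest coding gene with a TSS within 5000 bp of one of theirs, the 3 genes most like *Rybp* and *Pcgf5*, and of the other Polycomb genes those with H2AK119ub or a differing H3K27ac or H3K27me3 call. *Fbrs*, *Gm13334*, *BC061194* and *Mir219-1* were named after their values were seen. Part of the list of other Polycomb genes is not reported here. RefSeq promoters were found for 7 of the 10 genes, and all 9 of them matched NCBIM37 once. *Pcgf1*, *Rybp* and *Yaf2* had no entry. Assignment was tested on simulated data, where all 200 genes given a peak were returned exactly, and checked against bedtools 2.31.1, where 0 genes differed. Analyses were run in Python 3.11.15 with numpy 2.4.6 and pysam 0.24.0. No test was run, since each group had 1 library.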

Additional observations from a re-analysis of the deposited data

How the results depend on the processing

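Over 11 alternatives, 334 of 366 values stayed on the same side of 1 and within 10% (ratios) or within 1.5 times (counts), 26 moved and 6 changed direction. Giving each peak to the nearest TSS and adding RefSeq start sites were chosen after seeing the data, as were all alternatives for H3K27ac and H3K27me3 lengths. No paired analysis was possible because each mark had a single library per genotype. Read depth, which the lists do not give, limits every absent call. The study reports mapped reads per library, and these were not used here. Where no cause is given, the cause was not tested.

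Keeping peaks with −log10 q of 3 or more, genes called fell from 6 to 3 for H3K27ac in Delta, from 9 to 5 and from 8 to 4 for H3K27me3 in WT and Delta, and from 1 to 0 for H2AK119ub in both. The median H3K27me3 length ratio moved from 1.33 to 1.18 there, to 1.12 with a TSS distance of 5000 bp and to 1.04 with joined peaks. The number of genes whose H3K27ac call differed was 2, and it became 1 with a −log10 q of at least 3 (*Pcgf3*), with equal numbers of top peaks (*Pcgf5*), with the most upstream TSS only and with RefSeq start sites (*Yaf2* in both). It was 3 with a TSS distance of 5000 bp, which added *Bmi1*, and stayed at 2 when 500 bp had to be covered, with *Ring1* in place of *Pcgf5*. For H3K27me3 it was 1 (*Pcgf6*). It stayed at 1 with another gene, which was *Pcgf2* for peaks whose −log10 q was 3 or more, and *Yaf2* both for peaks enriched at least 3-fold and for equal numbers of top peaks. *Pcgf6* lost its call in these cases. It became 3 with a TSS distance of 1000 bp (*Pcgf1*, *Pcgf6* and *Yaf2*) and 2 when 500 bp had to be covered (*Yaf2* and *Rnf2*). The latter left 5 genes with H3K27me3 in WT.

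Ratios that changed direction were those of H3K4me3 at *Bmi1* (1.07 with a −log10 q of at least 3, which removed the smaller WT peak) and *Pcgf2* (0.969 with joined peaks). The others were of H3K27me3, at *Pcgf1* (0.714 with a TSS distance of 5000 bp), *Pcgf3* (0.859 with joined peaks, and 0.974 by bp inside the TSS window) and *Pcgf2* (1.12 by bp inside the TSS window). The direction of 8 shorter and 2 longer H3K4me3 ratios otherwise held, except that *Pcgf5* gave no value with the most upstream TSS only. Joined peaks moved the ratio of H3K27ac at *Pcgf2* from 1.36 to 2.52 and that of H3K27me3 at *Yaf2* from 4.99 to 8.33. In all, 14 values could not be given because a gene lost its call in 1 genotype or both.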
